A study of Mus musculus with 6 samples.

Results

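Cyclins drive a dividing cell through its cycle, and 5 of their genes were followed here in young and aged mouse brain: Ccnd3, Ccne1, Ccne2, Ccna2 and Ccnb2. They were taken by gene symbol and were 5 of the 88 genes analysed. All 88 carry the KEGG term for cellular senescence, in which cells stop dividing for good. The 5 cyclins also belong to the 21 of these genes that carry the KEGG cell cycle term. Cyclins are the regulatory subunits of the cyclin-dependent kinases (CDKs), and their own levels rise and fall through the cycle. D-type cyclins work with CDK4 and CDK6 in G1 and answer to growth signals. E-type cyclins work with CDK2 at entry into S phase, cyclin A2 acts in S phase and G2, and B-type cyclins work with CDK1 in mitosis. Most cells of the adult brain have left the cycle, whereas neural progenitors and many immature neuroblasts still divide.

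Messenger RNA was sequenced from 3 young and 3 aged samples, which the labels give as mouse brain with neuroblast, an immature migrating neuron, as the cell type. The sources used here give neither the ages nor the strain nor the number of animals. The labels of both groups describe tamoxifen-treated mice whose tissues were taken 4 weeks later to measure NK cells carrying tdTomato, a red fluorescent protein, and do not say how this relates to the sequenced RNA. The RNA came from ground tissue, per the extraction protocol, and a cell sort is not mentioned there. None of the 7 neuroblast markers listed for a check of that label, such as Dcx, was among the 88 genes, so the label could not be checked. Nothing in the labels ties the samples to separate animals, so every p-value is set against the spread of these 6 samples, which may be only technical.

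The values are the authors' expression signal per gene and sample, whose unit is not named. Whether it is per transcript length is not given, so each gene was compared across samples and not with other genes. The depth of the libraries is unknown. All 88 genes had a higher mean signal in the aged group than in the young group, so a higher aged mean is a property of how the rows were picked and is no finding about the cyclins. The summed signal of the 88 genes was 1902 to 2328 in the young samples, 1900 in aged replicate 1 and 2943 to 2992 in the other two aged samples. Aged replicate 1 stood apart. Over the 66 genes whose signal averaged 1 or more, its log2 values correlated with those of the other 5 samples at r = 0.723 to 0.844, against 0.930 to 0.992 among those 5 (Pearson's r over genes, and genes are no independent replicates). The log2 change of each cyclin is therefore given with and without it. The search for genes with a similar pattern used all 6 samples, so its matches include the departure of that sample. In tissue RNA, fewer cells of a type and less RNA per cell cannot be told apart.

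The cyclins had different patterns over the samples. Ccnd3 was high in aged replicates 2 and 3 and low in aged replicate 1, while Ccna2, Ccnb2 and Ccne2 had their highest value in aged replicate 1. Ccne1 did neither. In none of the 5 genes did the aged samples separate from the young ones, against 4.55% of the 88 genes whose groups did not overlap.

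**Figure D1:**
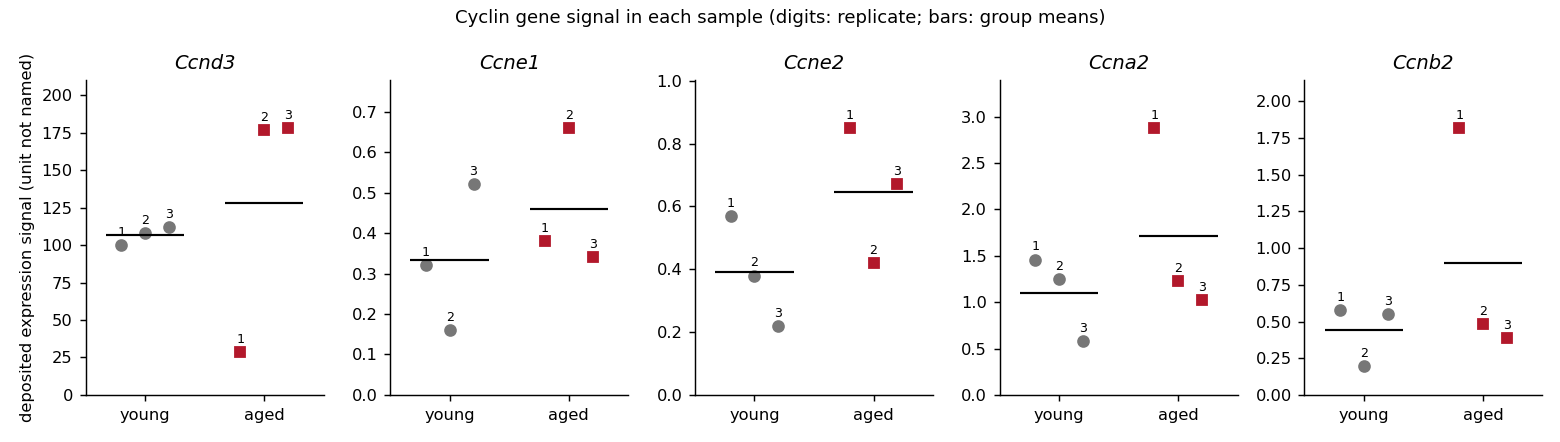
Deposited expression signal (y axis, own linear scale from 0 in each panel) of the 5 cyclin genes in 3 young (circles) and 3 aged (squares) samples. Digits give the replicate and bars the group mean. Aged replicate 1 is the lowest of 6 samples for Ccnd3, at 28.7, and the highest for Ccne2, Ccna2 and Ccnb2.

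Sequences before the gene start are shown for Ccnb2 and Ccnd3, the pair of cyclins that departed most in opposite directions in aged replicate 1. They are the 250 bases before the RefSeq start, on the gene's strand (GRCm38.p6), with capitals for CCAAT, the box bound by NF-Y, and TTTGAA, the cell cycle homology region (CHR) that the DREAM and MuvB complexes bind in many mitotic genes. Ccnd3 has 2 listed starts, and which of them these samples used was not measured.
Ccnb2, chr9:70421555-70421804, minus strand: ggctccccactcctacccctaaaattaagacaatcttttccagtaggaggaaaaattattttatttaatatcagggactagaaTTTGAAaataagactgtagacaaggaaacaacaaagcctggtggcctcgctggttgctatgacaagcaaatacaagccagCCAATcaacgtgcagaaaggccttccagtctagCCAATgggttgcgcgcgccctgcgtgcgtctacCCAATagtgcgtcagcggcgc
Ccnd3, chr17:47504801-47505050, plus strand: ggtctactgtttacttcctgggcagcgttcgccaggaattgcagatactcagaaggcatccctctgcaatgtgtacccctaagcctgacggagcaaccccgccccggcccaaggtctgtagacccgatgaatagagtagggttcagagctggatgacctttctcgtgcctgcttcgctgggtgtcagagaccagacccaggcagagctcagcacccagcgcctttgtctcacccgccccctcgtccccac
Ccnd3, chr17:47593217-47593466, plus strand: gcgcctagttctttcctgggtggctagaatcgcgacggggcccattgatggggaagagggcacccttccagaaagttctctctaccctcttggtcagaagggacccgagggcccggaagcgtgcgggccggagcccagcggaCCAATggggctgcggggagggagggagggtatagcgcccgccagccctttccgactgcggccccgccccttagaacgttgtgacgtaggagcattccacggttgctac

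Both motifs were searched on both strands from 250 bases before to 50 bases after the start. Ccnb2 held CCAAT 3 times, with first bases 87, 54 and 21 bases before the start. It held TTTGAA 167 bases before the start and again from base 5 to base 10 after it. Of 32851 RefSeq windows of the same length, 37.4% held CCAAT at least once, 3.37% held it at least 3 times and 17.9% held TTTGAA. The downstream start of Ccnd3 held CCAAT once, 108 bases before the start, and neither Ccnd3 window held TTTGAA. The window of Ccne1 held neither motif. These matches describe letters only.

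Ccnd3 (Entrez gene 12445), the D-type cyclin of G1, had a signal of 100.0, 108 and 112 in young replicates 1 to 3 and of 28.7, 177 and 178 in aged replicates 1 to 3. The young samples lay close together, 2 aged samples lay above all of them and 1 lay below all of them. The group means were 107 ± 6.26 in the young and 128 ± 86.0 in the aged samples (SD, n = 3 each). The mean of aged replicates 2 and 3 was 1.66 times the young mean, whereas the young mean was 3.72 times the value of aged replicate 1. On the log2(value + 1) scale the aged mean was the lower one, at 6.62 against 6.75, although the arithmetic mean was the higher one. That log2 change of −0.13 (SE 0.696) did not pass limma's moderated test (adjusted p = 0.994 over 66 genes, range over its alternatives 0.00525 to 0.999), and the exact two-sided permutation test gave p = 1.

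Ccna2 (12428), the cyclin of S phase and G2, had a signal of 1.46, 1.25 and 0.58 in the young and of 2.88, 1.23 and 1.02 in the aged samples. Aged replicate 1 was above every other sample, and the other two aged samples lay within the young range. The group means were 1.10 ± 0.460 and 1.71 ± 1.02 (SD, n = 3 each). The log2 change was 0.33 (SE 0.325) and did not pass limma's test (adjusted p = 0.994, range over its alternatives 0.495 to 0.999; exact permutation p = 0.6). It was 0.13 (SE 0.338) with equal library medians, 0.54 (SE 0.533) with a pseudocount of 0.1 and 0.043 (SE 0.226) without aged replicate 1.

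Ccnb2 (12442), a cyclin of mitosis, had a signal of 0.58, 0.20 and 0.55 in the young and of 1.82, 0.48 and 0.39 in the aged samples. Aged replicate 1 alone exceeded the young samples, at 4.11 times their mean, and the mean of aged replicates 2 and 3 was 0.981 times the young mean. The group means were 0.443 ± 0.211 and 0.897 ± 0.801 (SD, n = 3 each), with a difference of 0.33 on the log2(value + 1) scale (exact permutation p = 0.6). The difference was 0.12 with equal library medians, 0.68 with a pseudocount of 0.1 and 0.0019 without aged replicate 1.

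The E-type cyclins open S phase. Ccne2 (12448) had a signal of 0.57, 0.38 and 0.22 in the young and of 0.85, 0.42 and 0.67 in the aged samples. Of the aged samples, replicates 1 and 3 exceeded every young sample and replicate 2 lay among them. The group means were 0.390 ± 0.175 and 0.647 ± 0.216 (SD, n = 3 each), with a difference of 0.24 on the log2(value + 1) scale (exact permutation p = 0.2). With equal library medians it was 0.037 (exact permutation p = 0.9), and with a pseudocount of 0.1 it was 0.63.

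Ccne1 (12447), its close relative, had a signal of 0.32, 0.16 and 0.52 in the young and of 0.38, 0.66 and 0.34 in the aged samples. Aged replicate 2 was the highest sample, and the other two aged samples lay within the young range. The group means were 0.333 ± 0.180 and 0.460 ± 0.174 (SD, n = 3 each), with a difference of 0.13 (exact permutation p = 0.4) that became −0.074 with equal library medians and 0.42 with a pseudocount of 0.1. With 3 against 3 samples this permutation test cannot go below p = 0.1. Ccne1, Ccne2 and Ccnb2 had a mean signal under 1 and were outside the fit of 66 genes.

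Limma called 0 of the 66 genes at a 5% false discovery rate (0%), the 2 cyclins included, with 3 genes and no cyclin at an unadjusted p under 0.05. With no filter on low values, all 5 cyclins could be fitted. Limma then called 0 of 88 genes (0%), with 4 genes at an unadjusted p under 0.05 and again no cyclin among them. The median log2 change of the 5 cyclins was 0.24, against 0.12 over all 88 genes. Without aged replicate 1 these medians were 0.155 and 0.158, so the cyclins then did not exceed the other genes.

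**Figure D2:**
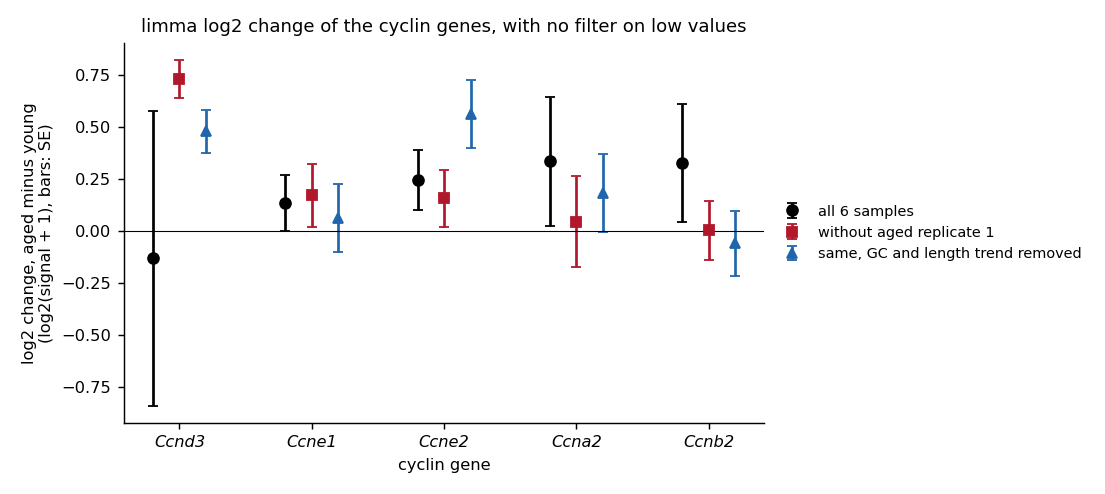
Limma log2 change of each cyclin gene (x axis), aged minus young, on the log2(signal + 1) scale (y axis), with bars for the SE and no filter on low values. Circles use all 6 samples, squares leave out aged replicate 1, and triangles also take out the dependence on GC content and transcript length within each library. The change of Ccnd3 goes from −0.13 to 0.73 without aged replicate 1 and to 0.48 with the trends removed.

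Ccnd3 was the 1 cyclin called when aged replicate 1 was left out. It was then higher in 2 of 2 aged samples, with limma's log2 change at 0.73 (SE 0.115) and an adjusted p of 0.00525, in a fit that called 15 of 66 genes (22.7%). With no filter, 8 of 88 genes were called (9.09%) and Ccnd3 was the 1 cyclin among them (adjusted p = 0.0117). Ccne1, Ccne2, Ccna2 and Ccnb2 had log2 changes of 0.17, 0.16, 0.043 and 0.0019 in that fit, with adjusted p from 0.505 to 1. With equal library medians, which shift every gene, Ccnd3 was still called without aged replicate 1, with a log2 change of 0.49 (SE 0.132, adjusted p = 0.0445, 13.6% of 66 genes called). Those library medians were taken over the 66 genes, which all have a higher aged mean. Equalising them therefore also takes out a shift that these rows share. With all 6 samples it moved the median log2 change over the 66 genes from 0.12 to −0.091. The exact permutation p for Ccnd3 without aged replicate 1 was 0.2, the smallest that 2 against 3 samples allow.

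The way the rows were picked bears on this call. With aged replicate 1 at 28.7, aged replicates 2 and 3 had to average more than 146 for the aged mean of Ccnd3 to exceed the young mean, and the highest young sample was 112. The measured mean of the 2 was 178. The direction of the difference in arithmetic means without aged replicate 1 was thus set by the gene's presence among these rows. The picking bears on the log2 change and its p-value too, but does not strictly fix them. For Ccna2, Ccnb2 and Ccne2, where aged replicate 1 was high, the picking placed no such demand on the other two aged samples.

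The within-sample ratio of the D-type to the A-type cyclin does not depend on any scaling between libraries. Ccnd3 over Ccna2 was 68.5, 86.3 and 194 in the young and 9.95, 144 and 175 in the aged samples. Aged replicate 1 lay below all others, and aged replicates 2 and 3 lay inside the young range, whose upper end was set by young replicate 3 with its low Ccna2. Ccna2 over Ccnb2 was 2.52, 6.25 and 1.05 in the young and 1.58, 2.56 and 2.62 in the aged samples. All 3 aged samples lay inside the young range for this ratio. Ccne2 over Ccne1 was 1.78, 2.38 and 0.423 in the young and 2.24, 0.636 and 1.97 in the aged samples, so that the balance of the E-type cyclins also overlapped between the groups.

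In the cyclins, young replicate 1 departed from the other young samples in the same direction as aged replicate 1 from the other aged ones. In each of the 3 cyclins with their highest value in aged replicate 1, young replicate 1 was the highest young sample, at 1.60 times the mean of the other two for Ccna2, 1.55 times for Ccnb2 and 1.90 times for Ccne2. Ccnd3, lowest in aged replicate 1, was also lowest among the young samples in young replicate 1, at 0.908 times the mean of the other two. Over the 88 genes, 23 of the 40 that were highest in aged replicate 1 and 16 of the 28 that were lowest in it showed the same order in the young samples. How often young replicate 1 was the highest or lowest young sample over all 88 genes was not counted, so these counts have no base share. Over the 66 tested genes, deviations of young replicate 1 and aged replicate 1 from their group means correlated at only 0.27.

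**Figure D3:**
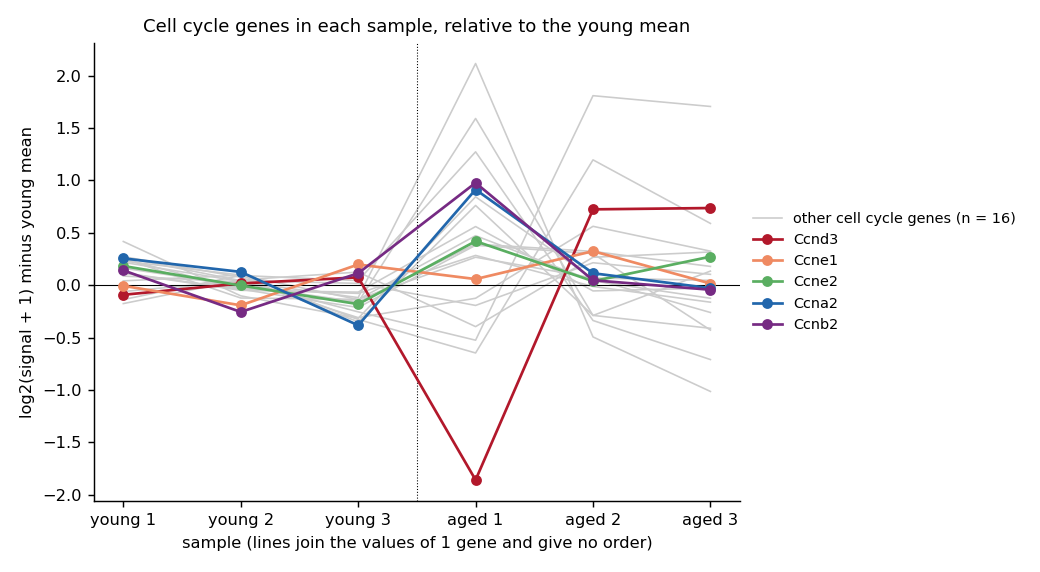
Log2(signal + 1) minus the gene's young mean (y axis) in each of the 6 samples (x axis) for the 5 cyclin genes (coloured) and the 16 other genes of the cell cycle table (grey). Lines join the values of 1 gene. In aged replicate 1 Ccnd3 lies lowest, while Ccna2 and Ccnb2 lie near 1 log2 unit above the young mean.

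The direction of the departures in aged replicate 1 varied with transcript composition. The longest coding transcript has a GC content of 36.3% for Ccne2, 46.1% for Ccna2, 49.3% for Ccnb2, 52.7% for Ccne1 and 58.4% for Ccnd3 (GENCODE release M21). The difference between aged replicate 1 and the average of the other two aged samples, on the log2(value + 1) scale, was 0.26, 0.87, 0.98, −0.11 and −2.59 in the same order. The 3 cyclins with a GC content under 50% were thus higher in aged replicate 1 and the 2 above it were lower. Among those 3 the departure rose with GC content, so its size did not follow the split. On this scale Ccnd3 had the lowest departure of all 88 genes, with Mapk12 at −2.46. The added 1 shrinks the departures of genes with a low signal, so the rank holds for this scale only. Of the 80 genes with a GC value, 28 of 36 under 50% were higher in aged replicate 1 and 31 of 44 at or above it were lower. The transcripts of Ccne2, Ccna2, Ccnb2, Ccne1 and Ccnd3 are 3006, 2965, 1531, 2000 and 2113 bases long.

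**Figure D4:**
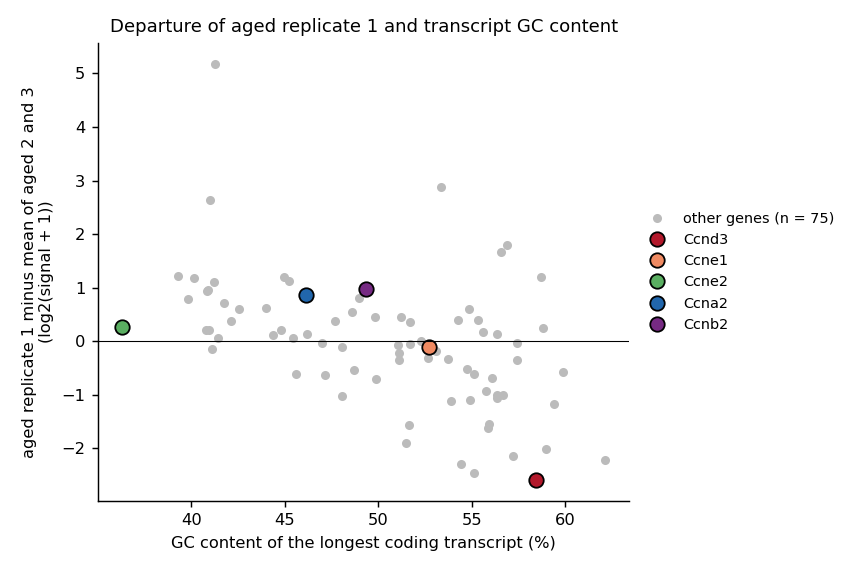
Difference between aged replicate 1 and the average of the other two aged samples on the log2(signal + 1) scale (y axis) against the GC content of the longest coding transcript in percent (x axis) for 80 genes, with the 5 cyclins coloured. Ccnd3, at 58.4% GC, is the lowest point at −2.59.

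When a linear trend on GC content and log2 length was taken out of each library, the log2 change of Ccnd3 with all 6 samples was −0.13 (SE 0.478, limma adjusted p = 0.992). Without aged replicate 1 it was 0.42 (SE 0.105, adjusted p = 0.0522) and no longer passed, in a fit that called 6 of 62 genes (9.68%). With no filter as well it was 0.48 (SE 0.105, adjusted p = 0.0430) and passed, with 6 of 80 genes called (7.5%). The call of Ccnd3 thus sat at the threshold once the trends were removed. In that fit without the filter, Ccne2 had a log2 change of 0.56 (SE 0.165, adjusted p = 0.0837), which did not pass, and Ccnb2 one of −0.061 (SE 0.155). Ccne2 has the lowest GC content of the 80 genes, so its adjusted values lie at the edge of the fitted trend. Its signals were also low, at 0.22 to 0.85. Before adjustment its group means of log2(value + 1) were 0.467 (young) and 0.711 (aged). Removing the trends turned aged replicate 1 from its highest sample into its lowest, at 1.55 against 1.85 to 2.72 in the others. Every adjusted value lay above both unadjusted means, so the change of Ccne2 in that fit depends on the fitted trend. The part of transcript composition in these differences was not tested further.

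The authors' deposited table gives its own statistics for the comparison, from a test that no header or label names. There, in the authors' deposited table, 4 of the 5 cyclins have a q under 0.05, where 54 of 85 genes with a q (63.5%) do. Ccnd3 has the smallest p of the cyclins in the authors' deposited table, 2.14e-45 with a log2 ratio of 0.28. For Ccna2 the authors' deposited table lists a log2 ratio of 0.59 and a q of 0.000185, for Ccnb2 0.98 and 0.00288, and for Ccne2 0.68 and 0.0106. Ccne1 has a log2 ratio of 0.47 and a q of 0.233 in the authors' deposited table. The cyclin with the smallest p there is the one whose aged samples lay on both sides of the young samples.

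The partners and regulators of the cyclins were read from lists of other cell cycle genes. Of the 16 other genes of the cell cycle table, 14 were tested and limma called 0 with all 6 samples. Without aged replicate 1 it called 3 of the 14: the CDK inhibitors Cdkn1a and Cdkn2b as higher, and the growth-promoting factor Myc as lower. Their log2 changes were 1.76 (SE 0.158), 0.89 (SE 0.259) and −0.75 (SE 0.224), with adjusted p of 0.000511, 0.0473 and 0.0495. The fit called 22.7% of all its genes, a share near that of these 14. With no filter Cdkn1a alone of the 3 was called, and Cdkn2b and Myc each had an adjusted p of 0.121. For arithmetic means without aged replicate 1, the direction of Cdkn1a and Cdkn2b was set by the picking of the rows, as for Ccnd3. Their aged replicates 2 and 3 had to average more than 30.82 and 1.43, against highest young values of 30.75 and 1.37. Aged replicate 1 was the highest sample in 11 of the 16 and the lowest in 4, against 45.5% and 31.8% of all 88 genes. Cdkn1a, Cdkn2b, E2f4 and the locus E030030I06Rik were the 4 with their lowest value there, as Ccnd3 had.

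By role, 2 of 7 CDK inhibitors, 7 of 14 pocket protein, E2F and DREAM genes, 4 of 7 CDC25 and checkpoint genes and Myc were among the 88 genes. Limma called none of these with all 6 samples, and none of the 6 tested pocket protein, E2F and DREAM genes or of the 3 tested checkpoint genes without aged replicate 1. E2f2, a transcription factor that activates S-phase genes, had a signal of 1.84, 1.47 and 1.24 in the young and of 6.55, 1.05 and 1.75 in the aged samples. It was highest in aged replicate 1, as were Ccna2, Ccnb2 and Ccne2. Of the 7 pocket protein, E2F and DREAM genes, 5 were highest in that sample, against 45.5% of all 88 genes. The other members, E2f4 and Lin37, were lowest in it, as were 31.8% of all 88 genes. The CDK genes Cdk1, Cdk2, Cdk4 and Cdk6, 5 other cyclin genes, 10 proliferation genes such as Mki67 and 27 markers of other brain and immune cell types were not analysed here.

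Genes with the pattern most like each tested cyclin were found by the root mean square difference of log2(value + 1) over the 6 samples, each gene centred on its own mean. For Ccnd3 they were Mapk12 (0.15), Trpv4 (0.23) and H2-T22 (0.26), against a median of 0.88 over 65 genes. Mapk12, a p38 kinase gene, had a signal of 10.5, 13.0 and 15.8 in the young and of 2.60, 19.7 and 17.9 in the aged samples, again lowest in aged replicate 1. For Ccna2 they were Sirt1 (0.14), Atr (0.14) and Ppp3cb (0.16), against a median of 0.52. Atr, a kinase of the replication checkpoint, had a signal of 2.84, 1.68 and 1.31 in the young and of 4.16, 2.00 and 1.40 in the aged samples. The values of Ccna2, Atr and Ppp3cb ran highest in aged replicate 1 and next highest in young replicate 1. Sirt1, the closest gene, was also highest in aged replicate 1. Its next highest sample was aged replicate 2, at 4.49 against 3.74 in young replicate 1.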

How the data were processed

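Per the labels' protocols, RNA was extracted from ground brain tissue, polyadenylated RNA was selected, and libraries were sequenced from DNA circles. The deposited tables give, for each gene and sample, an expression signal with 2 decimals from the authors. No source used here names its unit, the aligner, the counter or the build. Further columns, per the file headers, are a log2 ratio (aged over young), a p-value and a q-value, from a test left unnamed.

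Groups and replicate numbers come from sample titles. Genes whose signal averaged 1 or more were kept, and limma 3.58.1 (R 4.3.3) was fitted to log2(value + 1) (eBayes with trend, no covariate), and p-values were adjusted by Benjamini-Hochberg over all tested genes at a 5% false discovery rate. Single genes were also compared by exact two-sided permutation (5 tests, unadjusted; scipy 1.17.1, Python 3.11.15). Alternatives were equal library medians, another pseudocount (0.1), other filters (none, or a mean of 5), eBayes without trend, array weights, a replicate block, the cell cycle table alone, a 10% threshold and each library left out. GC content and length come from GENCODE M21 transcripts matched on Entrez ID (80 of 88 genes), and windows before gene starts from RefSeq (GRCm38.p6), which held 3 of the 5 cyclins. Named genes are the 5 cyclins, the fixed role lists and the 3 genes most like each tested cyclin. E2f2, Mapk12, Atr, Sirt1 and the motif words were chosen after values were seen. The members and lists were chosen with earlier results of these data known.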

Additional observations from a re-analysis of the deposited data

How the results depend on the processing

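The number of genes called rose from 0 to 15 without aged replicate 1 and to 15 with limma's array weights, and was 0 to 15 over the libraries left out in turn. Of the alternatives chosen after seeing the data, those without aged replicate 1 called 8 genes (no filter), 9 (equal library medians), 6 (trends on GC content and length removed) and 6 (the same with no filter). With all 6 libraries and trends removed, 0 genes and 0 cyclins were called, with or without the filter. The cyclin count was 1, Ccnd3, without aged replicate 1 and with array weights, except in the filtered fit with trends removed and without aged replicate 1, where it was 0. It was 0 to 1 over the libraries left out. The log2 change of Ccnd3, −0.13, turned to 0.73 without aged replicate 1 (with or without the filter), 0.66 with array weights (adjusted p = 0.0304), 0.49 with equal medians, 0.42 with trends removed and 0.48 with these and no filter, the last 3 also without aged replicate 1. That of Ccna2 turned to −0.19 with equal medians without aged replicate 1, and that of Ccne1 to −0.074 with equal medians and all samples. That of Ccnb2, 0.33, was −0.061 with no filter, trends removed and without aged replicate 1. Over single libraries left out, Ccnd3 ran from −0.57 to 0.73. The cause was not tested.

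Samples share only a replicate number. Deviations of same-numbered samples correlated at 0.27, 0.091 and 0.41, and 5 of 6 samples correlated best with their own number. The exception was aged replicate 2, at 0.25 with young replicate 3. Deviations sum to 0 within each group, so these matches are not independent and their count is no test of pairing. With the replicate number as a block limma called 0 genes and 0 cyclins, and the 5 cyclin log2 changes were as without it. Unknown depth limits Ccne1, Ccne2 and Ccnb2, whose signals under 1 in most samples carry a counting error that could not be computed.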
